A study of Danio rerio with 4 samples.

Results

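The transcripts of *goosepimples* (*gsp*) mutant larvae were compared with those of their siblings, with 1 library of each. A transcript entered the comparison when its deposited value was at least 100 in both libraries, which held for 14461 of the 27423 rows of the table. The labels give the mutants as goosepimples/Myovb(-/-) and the siblings as heterozygous and homozygous wild type together, so that larvae with 1 mutant allele are part of the control. Both were whole larvae at 48 hpf, from crosses of heterozygous parents, and homozygous mutants had been separated at 43 hpf. The labels give 20 larvae for each pool. The corresponding pair of the *romeharsha* line, romeharsha(-/-) mutants and their siblings at the same stage, served as a reference and completes the 4 libraries of the series. The gene mutated in *rhs* is not known from the sources used here. Because each group was 1 pool, no test was possible, and every ratio below describes these libraries.

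Myosin Vb is an actin-based motor that carries recycling endosomes, bound through Rab11-family GTPases and their adaptors, towards the cell surface. The zebrafish epidermis at this stage is a bilayer of an outer periderm over basal cells, sealed by tight junctions and joined by adherens junctions and desmosomes. In *gsp* mutants the peridermal cells round up. Keratins, claudins and cadherins are therefore described below. So are the grainyhead-like factors, which control genes of cell adhesion and barrier in vertebrate surface epithelia. Whole larvae also contain muscle, lens, nervous tissue, blood and liver, so that fewer cells of a type and less RNA per cell cannot be told apart in these values.

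The mutated gene itself did not check the labels. Both *gsp* libraries had *myo5b* at 1, the lowest value of the table, and the *rhs* mutants and siblings had it at 193 and 87.8. LOC100536519, which the table describes as myosin-Vb-like and which was chosen after its values were seen, stood at 1851 in the mutants and 1946 in the siblings, a centred ratio of 1.03 (95% counting interval 0.962 to 1.09). Within 2 Mb on either side of *myo5b* on chromosome 21, 54 transcripts were kept. In the mutants 3 of them were higher and 5 lower by 1.5-fold or more, against 6.52% and 2.78% of all kept transcripts. Among those lower were *neu3.2*, a plasma membrane sialidase (ratio 0.523), and *pold3*, a subunit of DNA polymerase delta (0.535). Over the same window the median log2 ratio was -0.08. Both genes were chosen for their position after the values were seen, and in *rhs* their ratios were 1.0 for *pold3* and 0.987 for *neu3.2*.

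The libraries totalled 106188690 estimated counts in the mutants and 115856413 in the siblings, and the median ratio of the kept transcripts was 0.927 before centring. After centring on that median, 943 transcripts were at least 1.5-fold higher in the mutants (6.52% of those compared) and 402 at least 1.5-fold lower (2.78%). At 2-fold the numbers were 358 (2.48%) and 82 (0.567%), and at 8-fold 23 and 3. Of all kept transcripts, 10546 (72.9%) were within 0.32 of 0 on the log2 scale. Without centring the 1.5-fold numbers were 717 higher and 661 lower, so that the share of higher transcripts among those past 1.5-fold, 70.1% after centring, was 52.0% before it. Log2 ratios had an SD of 0.43 for *gsp* mutants over siblings. For *gsp* siblings over *rhs* siblings, where no mutant was compared, the SD was 0.73, with 1300 transcripts (9.54%) at least 1.5-fold higher and 1108 (8.13%) lower. Near the threshold, *lama2* (log2 ratio 0.59) was just past 1.5-fold and *met* (0.58) just short of it, and *crygmxl2* (ratio 0.666) and *gstm* (0.667) lay on either side of the lower bound. At the minimum value, *grna* was kept with 100.9 counts in the mutants and *skap1*, with 99.7, was not.

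**Figure D1:**
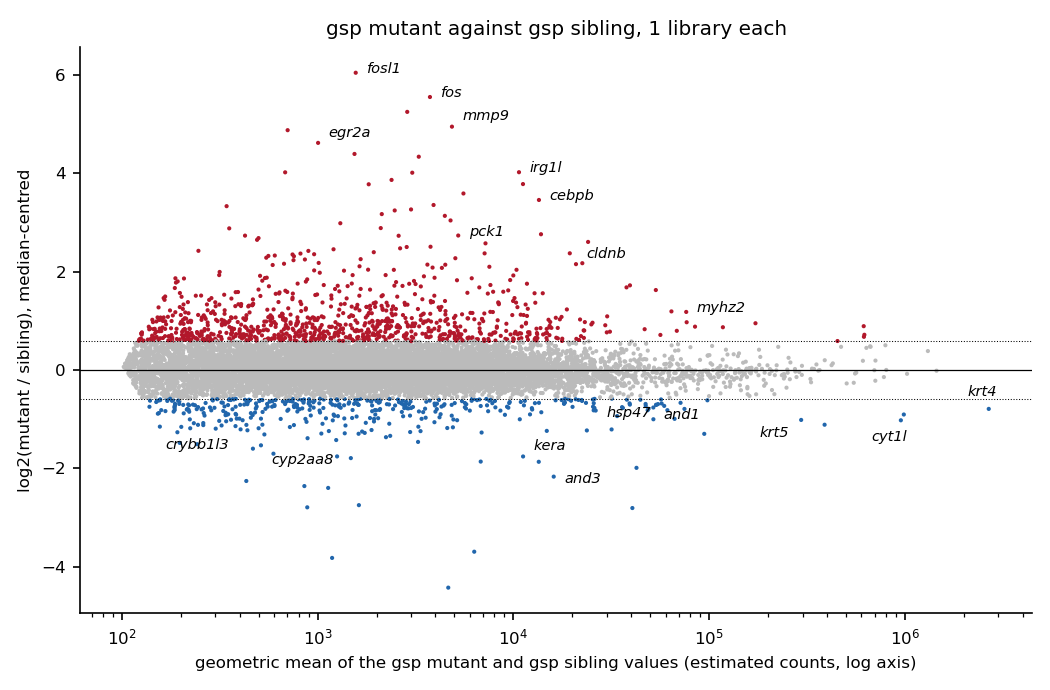
Level against ratio for the 14461 kept transcripts. The horizontal axis is the geometric mean of the mutant and sibling values (estimated counts, log axis) and the vertical axis the median-centred log2 ratio. Red points are the 943 at least 1.5-fold higher in the mutants, blue points the 402 at least 1.5-fold lower, and dotted lines mark 1.5-fold. Immediate early genes lead the higher side, and keratins are the most abundant transcripts on the lower side.

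The ratio moved with gene length, taken as the distance from start to end in the table. When the kept transcripts were divided by length into 10 groups of nearly equal size, in the shortest group (median 2.0 kb) the median log2 ratio was -0.08, and in the longest (median 94.2 kb) it was 0.10. The share at least 1.5-fold lower fell from 7.18% in the shortest group to 0.83% in the longest, whereas the share at least 1.5-fold higher went from 8.91% to 5.12%. Spearman's rho across the 14461 transcripts was 0.23, and for *rhs* mutants over siblings it was -0.08 across 13633. The libraries share an annotation and the transcripts are not independent, so this is a description. Centring within these length groups was an alternative chosen after seeing the data. Its values are given below for the keratin, collagen folding, lens, oxidative phosphorylation, EGF receptor, desmosome, cadherin, integrin and oxidative stress lists.

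**Figure D2:**
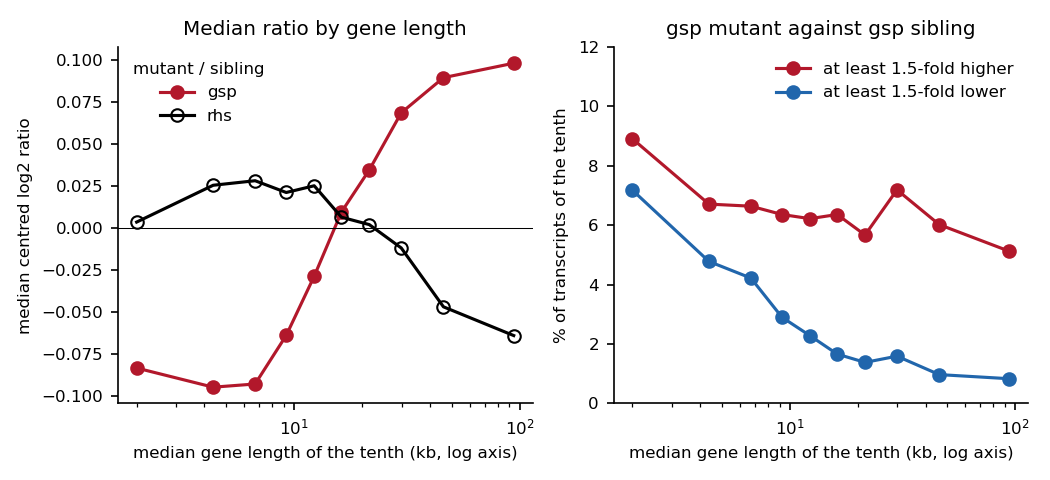
Ratios by gene length in 10 groups of the kept transcripts. The left panel plots the median centred log2 ratio against the median gene length of the group (kb, log axis) for *gsp* and for *rhs*, and the right panel the percentage of transcripts at least 1.5-fold higher or lower in *gsp* mutants. In *gsp* the medians run from -0.08 to 0.10 with length, and in *rhs* they lie between -0.06 and 0.03.

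Immediate early genes stood highest. All 12 kept members of the AP-1 and ATF list, transcription factors of the first response of a cell to growth factors and stress, were at least 1.5-fold higher, with a median log2 ratio of 2.74 against 0 for all kept transcripts. *fos* was 24678 in the mutants and 569 in the siblings (ratio 46.8, 43.0 to 50.9), and *fosl1* was 12227 and 200 (65.8, 57.3 to 76.2). Both were high in *rhs* mutants too, at 10527 against 720 for *fos* and 16665 against 170 for *fosl1*. *junb* (20.2), *junbl* (13.7) and *atf3* (9.59) followed. Of 22 kept members of the Egr, Ier and Nr4a list, 13 were higher and 0 lower, led by *egr2a* (24.5), by zgc:92020, which RefSeq names *egr3* (21), and by *egr1* (16.1). Of 14 feedback phosphatases and Sprouty genes, which restrain ERK signalling, 8 were higher, among them *dusp2* (7.38), *dusp5* (4.76) and *dusp1* (3.37).

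Among these early genes some had no counterpart in *rhs*. *npas4*, an activity-dependent factor of neurons, was 1046 in *gsp* mutants and 112 in their siblings (ratio 10.04, 8.28 to 12.35), but 210 and 222 in *rhs* mutants and siblings. zgc:175128, *egr4* in RefSeq, showed the same order, with 1056 and 172 in mutants and siblings of *gsp* and 286 and 277 in those of *rhs*. The *gsp* mutant library was the high one for both genes. The difference between the lines was not tested.

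Of 9 kept EGF receptor family and ligand genes 4 were higher and 0 lower (median 0.42), and after centring within gene length 3 were higher. The ligand *hbegfa*, which activates EGF receptors, was 13177 in the mutants and 1730 in the siblings (8.21, 7.81 to 8.64), and *nrg1*, a ligand of ErbB receptors, 1398 and 447. In the JAK-STAT and SOCS list 13 of 25 members were higher and 0 lower, led by *socs3a* (13.7), an inhibitor of cytokine receptors, with the receptor genes *il4r* (3.25) and *lifrb* (3.1). *lifrb* is among the higher transcripts within 2 Mb of *myo5b*, and its ratio in *rhs* was 2.45. *cebpb* was 43058 in the mutants and 4236 in the siblings (11), and *cebpd* 34648 and 5525 (6.76), both being factors of the acute phase response. Of 13 matrix metalloproteinases and inhibitors, 5 were higher and 0 lower, but 6 had log2 ratios below 0 and the list median was 0.13. *mmp9*, a gelatinase made by leukocytes and by wounded epidermis, reached 25940 from 908 (30.8), and the collagenase *mmp13a* 6137 from 737 (8.98).

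Inflammatory genes formed a smaller set. Of 15 kept cytokines and effectors 9 were higher and 1 lower. *irg1l*, an itaconate-producing enzyme of inflamed epithelium in zebrafish, was 41404 in the mutants and 2755 in the siblings (16.2, 15.6 to 16.9). LOC100536594, *cxcl8b.1* in RefSeq and a chemokine for neutrophils, was 3663 and 135 (29.3), and *il8* 653 and 235 (3.0). The member that was lower, *nos2b*, an inducible nitric oxide synthase, was 114 and 343 (0.358). In the NF-kappaB list 7 of 14 members were higher, including the inhibitors *nfkbiaa* (2.93) and *nfkbiab* (2.27). *ptgs2b* (10.21) and *ptgs2a* (4.28), the inducible cyclooxygenases, and the complement factor *cfb* (2.75) were higher as well. The list of prostaglandin synthesis and reception did not move together, with 4 of 15 kept genes higher, 3 lower and a median of -0.01. Subunits of NADPH oxidases, collected after their values were seen, stood higher in 5 of 7, from zgc:152911, *noxo1a* in RefSeq (5.47), and *noxa1* (3.48) to *cybb* (1.77).

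The defining markers of neutrophils and macrophages did not move together. Of 18 kept markers 7 were higher and 1 lower, and their median log2 ratio was 0.39. *ncf1* was 602 in the mutants and 258 in the siblings (2.52), whereas *lyz*, the lysozyme of myeloid cells, was 6204 and 11877 (0.563). The summed level of all markers found was 532 CPM (counts scaled to the library total) in *gsp* mutants and 288 in their siblings, and *mmp9* alone made up most of that difference. The part of leukocytes in the higher inflammatory genes was not tested.

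Keratins, the intermediate filament proteins of the epidermis, were the most abundant transcripts that were lower. *krt4* was 1961954 in *gsp* mutants and 3665460 in their siblings (ratio 0.577, 0.576 to 0.578), against 3332159 and 2883598 in *rhs* mutants and siblings. *cyt1* was 694381 and 1404194 in *gsp* (0.533), and 1418078 and 1298356 in *rhs*. For both genes the *gsp* mutant library was the lowest of the 4. With the *rhs* sibling as control the log2 ratio of the *gsp* mutant was -0.73 for *cyt1* and -0.38, within 1.5-fold, for *krt4*, whose *gsp* sibling value was also 1.32-fold above that of the *rhs* sibling after scaling. Of 16 kept genes of the keratin list 6 were lower and 1 higher, with a median log2 ratio of -0.40, and centring within gene length left the numbers at 6 and 1. *cyt1l* (0.492) and *krt5* (0.494) were lower too, and so was *icn2* (0.567), an S100 protein of the skin that the list also holds. The lowest member was zgc:136930, at 20550 and 88083 in *gsp* (0.252) and 14223 and 31516 in *rhs*. The summed level of the list was 39373 CPM in the mutants and 67479 in the siblings of *gsp*, against 63585 and 54765 for *rhs*.

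Not every keratin followed. *krt18*, a partner of *krt8* in simple epithelia, was 69435 in the mutants and 45744 in the siblings (1.64), and *krt8* was 153780 and 131311 (1.26). Both were higher in *rhs* mutants also, at 1.98 and 1.70. zgc:110712, *krt99* in RefSeq and chosen after its values were seen, had one of the lowest ratios of the table, at 474 and 2700 (0.190, 0.172 to 0.209). In *rhs* it was 626 and 803, so that the *gsp* sibling library was the one that stood apart.

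Actinodins, structural proteins of the fin fold rays, were lower in parallel with the keratins. *and3* was 7296 and 35394 in mutants and siblings of *gsp*, and 28199 and 32290 in those of *rhs*, which gave the lowest ratio of any gene not listed under a clone or locus name (0.222, 0.217 to 0.228). Here the mutant library stood alone and the other 3 were near each other. *and1* was 35298 and 76319 in *gsp* (0.499) and *and2* 54716 and 102259 (0.577), with ratios of 1.31 and 1.34 in *rhs*. The other 17 kept genes of the fin fold matrix list, fibrillar collagens and Fraser complex genes among them, were within 1.5-fold, and the list median was 0.08.

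A further group of lower transcripts carried clone names and was identified through RefSeq. These genes were chosen after their values were seen and have close relatives among which reads may have been divided. zgc:113413, *aep1* in RefSeq, an aerolysin-like protein, was 57942 against 153849 in *gsp* (0.406), against 127279 and 147582 in *rhs*. All 4 kept *jac* genes, whose products are jacalin-like lectins, were lower than in the *gsp* siblings, from 0.403 for wu:fa92h10 (*jac4*) to 0.459 for zgc:172260 (*jac8*). The most abundant, zgc:174688 (*jac10*), was 2937 and 7184 in *gsp* and 6555 and 7053 in *rhs*. In the other 3, however, the *gsp* siblings were the library apart, and with the *rhs* sibling as control the *gsp* mutant would be the higher. wu:fa92h10 was 327 and 875 in *gsp* and 318 and 286 in *rhs*. For zgc:172260 the values were 170 and 399 in *gsp* and 174 and 170 in *rhs*, and for wu:fb11f10 (*jac1*) 247 and 587 in *gsp* and 148 and 137 in *rhs*. Glycosyltransferases were in this set as well, with all 3 kept *b3gnt3* genes lower (zgc:86586, 0.387) and zgc:162337, *fut9d* in RefSeq, at 6792 and 26739 (0.274). zgc:112355, *tgm1l4* in RefSeq, a transglutaminase, was 317 and 1114 (0.307).

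In the tight junction list 13 of 42 members were higher and 0 lower (median 0.22), while in *rhs* 18 of 40 were higher. *cldne*, the most abundant claudin among the leading members, was 65161 in *gsp* mutants and 21966 in their siblings (3.2), and *cldnb* 42361 and 10294 (4.44). The ratios in *rhs* were 5.02 and 7.65. *cldna* (2.74) and *cldnf* (2.33) followed. Of 13 desmosome and cornified envelope genes 4 were higher, including *dsc2l* (1.75), a desmosomal cadherin, and 3 were higher after centring within gene length. *cdh1*, which encodes E-cadherin, was 20814 and 11430 (1.96, 1.92 to 2.01). Of the 21 kept genes of the cadherin, catenin and nectin list 2 were higher, *cdh1* being 1 of them, where 6.52% of all kept transcripts were higher. The other was *pard3* (1.51), which the apicobasal polarity list also holds. Centring within gene length left 1 member of the cadherin list past 1.5-fold, with a median of 0.08. The median of the tight junction list thus lay above that of all transcripts and the median of the keratin list below it.

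Of the epidermal transcription factors 6 of 23 were higher and 1, *foxq1b* (0.623), was lower. *ets2* was 9067 in the mutants and 2221 in the siblings (4.4). *grhl3* was the grainyhead-like gene with the largest ratio, at 3453 and 1506 (2.47, 2.33 to 2.63), while *grhl1* (1.43), *grhl2a* (1.41) and *grhl2b* (1.14) stayed under 1.5-fold. *elf3*, an epithelial ETS factor, was 7354 and 1799 (4.41) in *gsp*, but it was listed at the floor of 1 in both *rhs* libraries. That applied to 373 kept transcripts, 372 of which carried a different transcript type label for the 2 lines, so *rhs* gave no reference for them. *dsg2*, a desmosomal cadherin with a ratio of 2.29, was among them. *elovl7b*, an elongase of long fatty acids, led the 36 barrier lipid genes (5.16), of which 9 were higher.

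**Figure D3:**
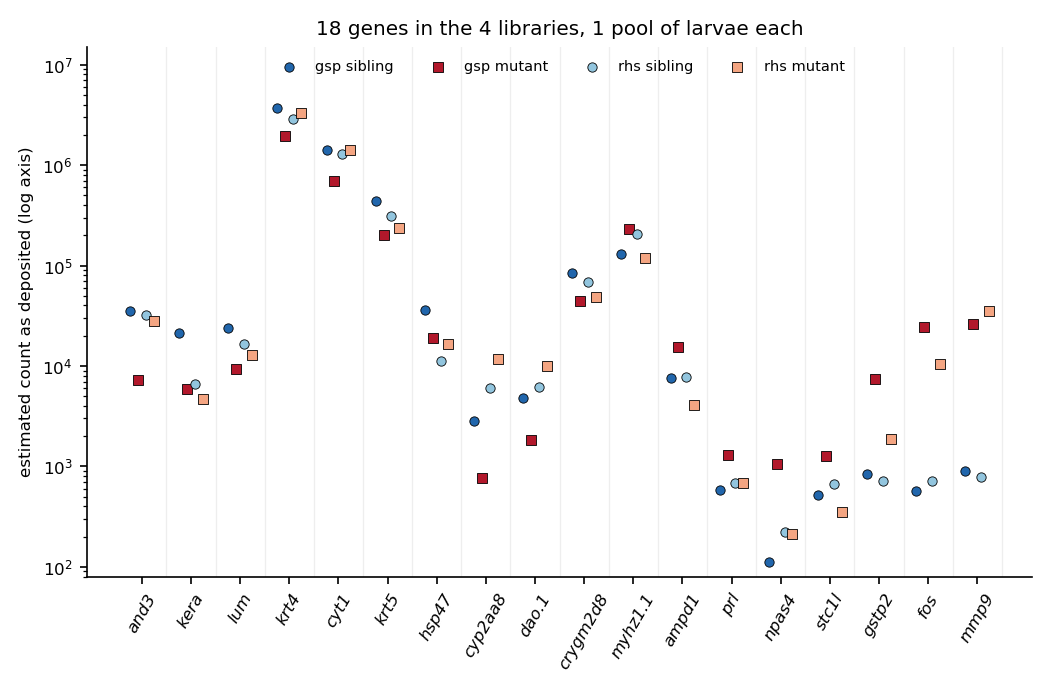
Estimated counts of 18 genes as deposited (log axis) in the 4 libraries, 1 pool of larvae each. Circles are siblings and squares mutants, in dark colours for *gsp* and light colours for *rhs*. *and3* and *cyt1* are low in the *gsp* mutants alone, *krt4* is lowest there but with the *rhs* siblings between the *gsp* libraries, *kera* is high in the *gsp* siblings alone, and *fos* and *mmp9* are high in both mutants.

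Of 41 kept fibrillar collagens and small leucine-rich proteoglycans, the latter being proteins that space collagen fibrils in the dermis and cornea, 4 were lower and 1 was higher, and the list median was -0.06. The 4 lower ones, *kera*, *lum*, *ogn* and *aspn*, all encode proteoglycans of this kind. *kera* was 5865 in the mutants and 21418 in the siblings (0.295, 0.287 to 0.304), and *lum* 9282 and 23635 (0.423). The *rhs* values of *kera*, 4720 and 6657, were close to the *gsp* mutant value, and the *gsp* sibling library was the high one. For *lum* the *gsp* mutant was the lowest of the 4, with 12868 and 16627 in *rhs*. *ogn* was at 0.626 and *aspn* at 0.616, and the higher member was *col12a1* (1.81). In the list of integrins, laminins and basement membrane, 4 of 37 members were higher and 2 lower, with a median of 0.16. Over all kept transcripts the shares higher and lower were 6.52% and 2.78%. The genes of that list were long (median 57.5 kb). After centring within gene length 2 were higher and 2 lower, with a median of 0.09. The integrin subunit genes of hemidesmosomes *itgb4* (1.68) and *itga6b* (1.504) were higher, while *col17a1a*, the hemidesmosomal collagen of basal keratinocytes, was 35439 and 63499 (0.602). *itga6b* was just past 1.5-fold and fell within it after centring within gene length.

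Of 69 kept genes for collagen folding and ER chaperones, 13 were at least 1.5-fold lower and 0 higher, with a median log2 ratio of -0.40 where the median over all transcripts was 0. In *rhs* 1 of 68 was lower, 1 was higher and the median was 0.07. *rcn3*, a calcium-binding ER protein, was 9088 against 17126 in *gsp* (0.572), against 12770 and 13716 in *rhs*. *fkbp7*, a prolyl isomerase of the ER, was 5347 and 10323 (0.559), against 7602 and 8662 in *rhs*. In both genes the *gsp* sibling was the highest library and the *gsp* mutant the lowest. *fkbp14* (0.606), *kdelr3* (0.611), a receptor that returns ER proteins, and *manf* (0.655) were lower too, and the main ER chaperone *hspa5* was at 0.792.

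*hsp47*, the collagen-specific chaperone that RefSeq names *serpinh1b*, was 19039 and 36408 in *gsp* mutants and siblings (0.564), and 16546 and 11204 in *rhs* mutants and siblings. Its high value was that of the *gsp* siblings, and with the *rhs* sibling as control the *gsp* mutant would be the higher. The same held for *tmx3*, the lowest member of the list, at 441 and 950 in *gsp* (0.501) and 102 and 337 in *rhs*. The genes of the list were short, with a median of 10.26 kb, and after centring within the length groups the median was -0.35 with 9 members lower. Genes of the unfolded protein and integrated stress response were not lower, with 5 of 30 higher and 0 lower. *chac1*, which degrades glutathione, was 42326 and 21467 (2.13), and *trib3*, a pseudokinase of that response, 11371 and 5426 (2.26).

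**Figure D4:**
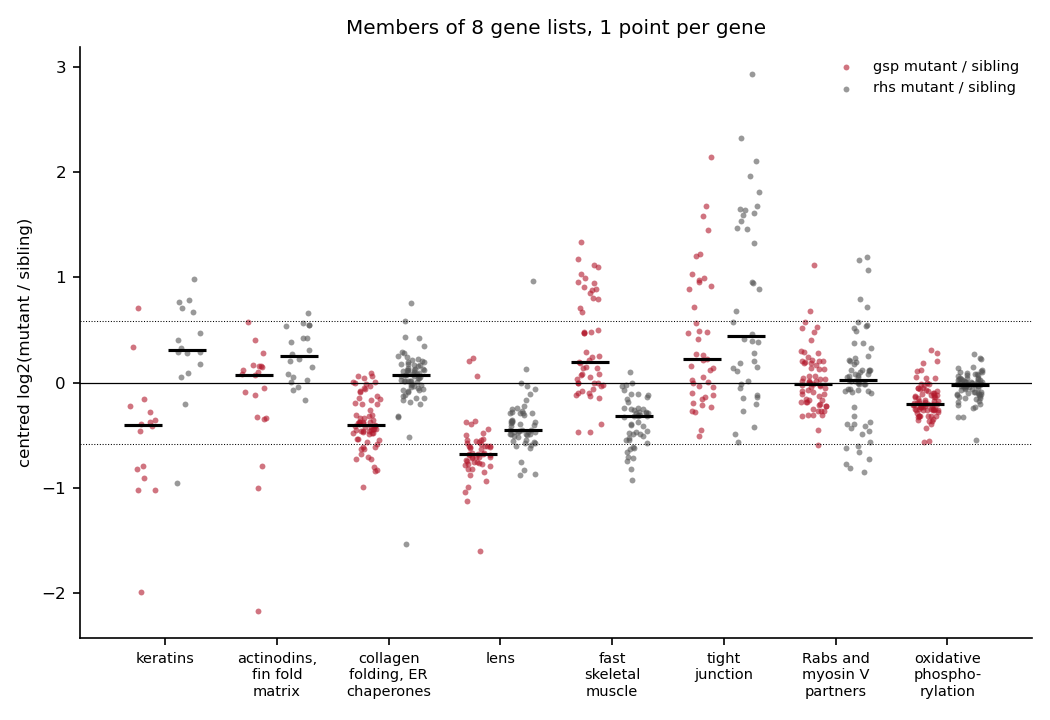
Centred log2 ratios of the members of 8 gene lists, 1 point per gene, for *gsp* (red) and *rhs* (grey). Bars are medians and dotted lines mark 1.5-fold. Collagen folding genes (median -0.40 in *gsp*, 0.07 in *rhs*) and keratins (-0.40 and 0.31) lie lower in *gsp*, lens genes lie below 0 in both lines, and fast muscle genes lie on opposite sides (0.20 and -0.32).

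Of the 60 lists, that of lens genes had the largest share of lower members. Of 54 kept crystallins and lens membrane proteins, 39 were at least 1.5-fold lower and 0 higher, with a median log2 ratio of -0.68. All 18 kept genes of the *crygm2d* cluster, gamma crystallins of the fish lens that lie together on chromosome 9 and are close in sequence, were lower. *crygm2d8* was 44368 against 84393 in *gsp* (0.567), against 48954 and 68287 in *rhs* (0.822). The lens transcription factors *hsf4* (0.544) and *foxe3* (0.613) were lower with them, and *crybb1l3* was lowest, at 258 and 845 (0.330). In *rhs* 7 of 53 were lower and the median was -0.45. The mutants were thus below the siblings in both lines. Lens genes were short (median 3.31 kb), and within the length groups 30 of the 54 remained past 1.5-fold, with a median of -0.60. The summed level was 9769 CPM in the mutants and 15193 in the siblings of *gsp*, against 8865 and 12548 for *rhs*. Chromosome 9, which carries the cluster, had 6.31% of its 539 kept transcripts lower and 2.97% higher, and 22 of those 34 lower transcripts were crystallins.

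Most other neural and visual genes were within 1.5-fold in *gsp*, and over all kept transcripts 2.78% were lower and 6.52% higher. Of 47 retina and photoreceptor genes 3 were lower, among them *rdh8l* (0.461) and *lrata* (0.474), enzymes of the visual cycle, and the list median was -0.03 against -0.39 in *rhs*. Of 76 neuronal genes 2 were lower, *slc6a11* (0.468) and *slc6a13l* (0.529), which encode GABA transporters, and 0 were higher. In *rhs* 25 of 69 neuronal genes were lower, with a median of -0.50.

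Fast skeletal muscle genes were higher in part. Of 51 kept genes 16 were higher and 0 lower (median log2 ratio 0.20), and in *rhs* 0 of 50 were higher and 9 lower (median -0.32). All 7 kept myosin heavy chains of fast and slow muscle, collected after their values were seen, were at least 1.5-fold higher in *gsp*. For all of them but *smyhc2* the *gsp* sibling was also below the *rhs* sibling after scaling, from 0.583 for *myhc4* to 0.717 for *smyhc3*. *myhz2* was 110623 and 52716 in mutants and siblings of *gsp*, and 54204 and 80411 in those of *rhs* (2.26 in *gsp*, 0.773 in *rhs*). *myhz1.1* was 230676 and 128934 in *gsp*, and 118267 and 206769 in *rhs*. The *gsp* mutant and the *rhs* sibling were the higher pair for *myhz1.1*, and the *gsp* sibling and the *rhs* mutant the lower pair.

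*ampd1*, the AMP deaminase of muscle, was 15485 and 7671 in *gsp* (2.18) and 4064 and 7798 in *rhs*. *pygma*, the muscle glycogen phosphorylase (2.52), and *mybpc2b*, a myosin-binding protein (2.14), were higher in *gsp* as well. The parvalbumin *pvalb2* was 715047 and 853031 (0.904). Among the 25 members with genes longer than the list median 9 were higher, and among the 26 others 7. The summed level of the list was 90650 CPM in the mutants and 72748 in the siblings of *gsp*, against 57839 and 76942 for *rhs*.

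Of 33 kept genes of gluconeogenesis and fasting 15 were higher and 0 lower, with a median log2 ratio of 0.48. *pck1*, the rate-limiting enzyme of gluconeogenesis, was 12970 in the mutants and 2106 in the siblings (6.64, 6.34 to 6.96). *igfbp1a*, which binds insulin-like growth factors and belongs to the IGF axis list, was 18545 and 1665 (12). The ratios in *rhs* were 14.8 for *pck1* and 11.5 for *igfbp1a*. *agxtb*, an aminotransferase of glyoxylate metabolism, was 1216 and 205 in *gsp* (6.41), with a ratio of 2.33 in *rhs*. In the interrenal and glucocorticoid list 11 of 25 members were higher and 3 lower, with a median of 0.36. *fkbp5* (3.55) and *klf9* (3.27), which respond to glucocorticoids, were among the higher ones. *txnipa*, a thioredoxin-binding protein that responds to glucose, was 90287 and 31602 (3.08). *cyp17a1*, an enzyme of steroid synthesis, was lower, at 2098 and 5363 (0.422). *agt*, the angiotensin precursor, belongs to the liver plasma protein list and was higher, at 3532 and 928 (4.1).

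Of 29 kept genes of the skin ionocyte list 8 were higher and 0 lower in *gsp* (median 0.34). In *rhs* 14 were higher and 1 lower (median 0.58). The list also holds the hormone gene *stc1l*, and RNA of whole larvae does not show which cells expressed a gene. *slc12a3*, a sodium chloride cotransporter, was 1160 in *gsp* mutants and 257 in their siblings (4.86, 4.25 to 5.59), against 520 and 415 in *rhs* (1.44). *slc12a10.2* of the same list was 709 and 437 in *gsp* (1.75), against 724 and 400 in *rhs* (2.075). *rhcga*, an ammonia transporter of ionocytes, was 4178 and 1185 (3.80), against 3798 and 2296. *prl*, a pituitary hormone that promotes ion uptake in freshwater fish, was 1295 and 586 (2.38), and 683 and 679 in *rhs*. *stc1l*, a relative of the calcium-regulating hormone stanniocalcin, was 1270 and 524 (2.61), and in *rhs* it was 349 and 665 (0.602). For *prl* and *stc1l* the *gsp* mutant library was the highest of the 4. Of the 6 potassium channel rows that RefSeq names *kcnj1a*, gathered after their values were seen, 5 were higher, such as si:ch211-244h7.4 (5.08, and 13.2 in *rhs*).

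Enzymes of detoxification split into opposite groups. *gstp2*, a glutathione transferase, was 7330 against 836 in *gsp* (9.46, 8.80 to 10.17), and 1854 and 721 in *rhs* (2.95). *pir* (4.82) and *sqstm1* (4.1), targets of the oxidative stress factor Nrf2 in vertebrates, were higher too, yet 8 of the 49 kept genes of that list were higher and 6 lower, with a median of 0.00. Centring within gene length gave 10 higher and 4 lower, with a median of 0.06. Over all kept transcripts 6.52% were higher and 2.78% lower. Cytochrome P450 genes of families 1 to 4 were more often lower, 8 of 26 against 2 higher. *cyp2aa8* was 764 against 2857 in *gsp* (0.289, 0.266 to 0.312), but 11676 and 6075 in *rhs* (2.2). *cyp2aa9* was 731 and 2118 in *gsp* and 2351 and 1419 in *rhs*. In both genes the *gsp* mutant was the lowest library. *dao.1*, a D-amino-acid oxidase, was 1846 and 4777 in *gsp* (0.417), and 9983 and 6213 in *rhs* (1.84). Of the 7 kept *cyp2aa* genes 5 were lower in *gsp* and 4 were higher in *rhs*, a family gathered after its values were seen.

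Most liver and gut genes were within 1.5-fold, where over all kept transcripts 2.78% were lower and 6.52% higher. Among 26 liver plasma proteins *agt* was higher and *rbp4*, the carrier of retinol in blood, was lower, at 45422 and 97634 (0.502). The list median was -0.18 in *gsp* and 0.55 in *rhs*. Of 13 intestinal and pancreatic genes 2 were lower and 0 higher, *fabp1b.1* (0.628), a fatty acid-binding protein, and *rbp2b*, an intracellular retinol-binding protein. *rbp2b* was 2110 and 5067 in *gsp* (0.449) and 6644 and 7150 in *rhs*. The liver marker *fabp10a* was low in all libraries, with 156 and 252 in *gsp* (0.668).

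The machinery that Myosin Vb works with was close to the median. Of 64 kept Rab GTPases and myosin V partners 2 were higher and 1 lower, with a median log2 ratio of -0.01. For this and the other lists of the paragraph, the shares over all kept transcripts were 6.52% higher and 2.78% lower. *rab11a*, which marks recycling endosomes, was 28882 in the mutants and 30463 in the siblings (1.02, 1.01 to 1.04). The higher members were zgc:91909, *rab7b* in RefSeq (2.17), and zgc:112037, *rab25b* in RefSeq (1.60), an epithelial Rab of recycling endosomes, and both were higher in *rhs* (2.3 and 2.11). *myo5ab*, a paralog of the mutated motor, was 240 and 391 (0.662) and was listed at the floor in *rhs*. Of 86 genes of endosomal sorting, coats and the exocyst 9 were higher and 1 lower. Lysosomal genes were higher in 14 of 73 and lower in 1, led by zgc:123333, *naga* in RefSeq and an alpha-galactosidase-related enzyme (3.54), and by the protease *ctsc* (2.08).

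Housekeeping sets showed few values past 1.5-fold, where 6.52% of all kept transcripts were higher and 2.78% lower. Of 79 genes of oxidative phosphorylation 0 were past it in either direction, with a median log2 ratio of -0.20 that was -0.11 within the length groups. Ribosomal proteins (83 genes, median -0.04), proteasome subunits (45 genes, -0.16) and genes of DNA replication and mitosis (0.04) had between 2 and 3 members past 1.5-fold. Markers of red blood cells, endothelium and pigment cells had medians of -0.17, 0.01 and -0.03.

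**Figure D5:**
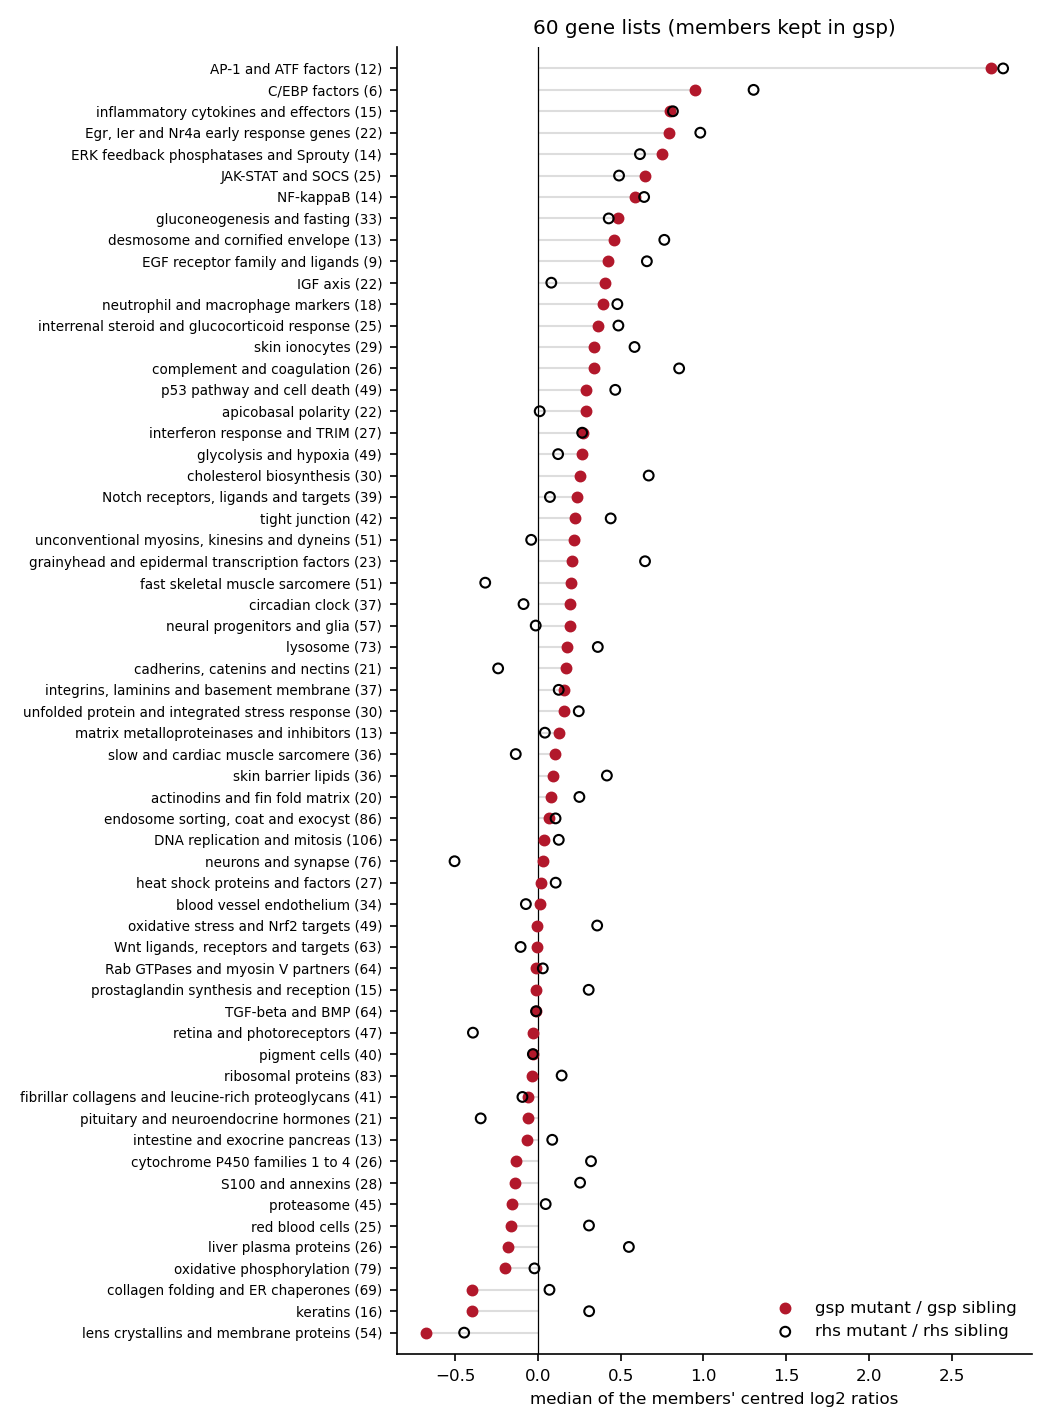
Median centred log2 ratio of each of the 60 gene lists, ordered by the *gsp* value, with the number of kept members in brackets. Filled points are *gsp* mutants over siblings and open points *rhs* mutants over siblings. AP-1 and ATF factors lie highest in *gsp* (2.74) and lens genes lowest (-0.68).

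Set against *rhs*, the higher and the lower transcripts of *gsp* differed in how many had a counterpart. Of the 13633 transcripts at 100 or more in all 4 libraries, 1328 were at least 1.5-fold higher in *rhs* mutants (9.74%) and 636 lower (4.67%). Of 861 transcripts higher in *gsp*, 601 (69.8%) were higher in *rhs* too, which was 45.3% of those higher in *rhs*, and 139 (16.1%) were within 0.32 of 0 on the log2 scale there. Of 357 lower in *gsp*, 39 (10.9%) were lower in *rhs*, which was 6.13% of those lower in *rhs*, and 207 (58.0%) were within 0.32 of 0 on the log2 scale. The shares with a counterpart were 69.9% and 11.5% over the transcripts whose type label did not differ between the lines. Across all 13633 transcripts Pearson's r between the ratios of the lines was 0.57, as a description, since transcripts are not independent. Whether a transcript responded differently in the 2 lines was not tested, since each line had 1 pair of libraries.

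The *rhs* siblings gave a second control beside which the *gsp* mutant library could be placed. The 861 higher and 357 lower transcripts had been chosen by the *gsp* mutant against the *gsp* sibling. The order of these libraries was therefore fixed, and the choice also favours extreme values in both. The same counts were not taken over all transcripts, so those below are a description. After each library was scaled to its median, the *gsp* mutant was above both sibling libraries for 794 of the 861 higher transcripts. It was below both for 310 of the 357 lower ones. It was the lowest of the 4 libraries for 271 of those 357. The *gsp* sibling was the highest of the 4 for 230 of them and the lowest of the 4 for 455 of the 861. With the *rhs* sibling in place of the *gsp* sibling as control, 127 of the 170 named genes past 1.5-fold that could be compared remained past it in the same direction, and 5 were past it in the opposite one. Those within 1.5-fold under that control included *krt4*, *krt5*, *and1*, *and2*, *kera*, *fkbp7*, *rcn3*, *col17a1a*, *crygm2d8*, *lyz*, *myhz1.1*, *myhz1.2* and *myhc4*. The named genes were chosen largely by their *gsp* ratios and the mutant library stayed the same, which favours agreement. Of all 13908 transcripts compared with that control, 3434 were past 1.5-fold.

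Transcripts at least 2-fold different in *gsp* and within 0.32 of 0 on the log2 scale in *rhs* were found in both directions. On the higher side, besides *npas4*, *prl* and *pygma*, were *hspb6*, a small heat shock protein of muscle (2.93), *psma6b*, a proteasome subunit (2.75), and *papss2a*, which makes the sulfate donor of proteoglycans (2.32). On the lower side, besides *and3*, *kera*, *lum* and *rbp2b*, were *adamtsl7*, a matrix protein related to ADAMTS proteases (0.427), *itih5*, which binds hyaluronan (0.460), and *foxb1.1*, a neural forkhead factor (0.462). *papss2a* was 2396 in *gsp* mutants and between 1116 and 1235 in the other 3 libraries. *adamtsl7* was 276 against 696 in *gsp*, and both *rhs* libraries, at 1261 and 1174, were above the *gsp* siblings.

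Some of the lowest ratios were in rows with a large difference between the lines. LOC100334082 was 965 against 22382 in *gsp* (0.0465, 0.0435 to 0.0496), but 17 and 174 in *rhs*. The row that RefSeq names *chs2*, a chitin synthase, was 304 and 4630 (0.0707), and 341 and 1251 in *rhs*. LOC100001880, *gvin1l2* in RefSeq, was 1688 and 23584 (0.0772), and 3476 and 10631. For LOC100334082, *chs2* and LOC100001880 alike, the mutants were below the siblings in both lines. wu:fb15e04 was 14749 and 111395 (0.143) and at the floor in *rhs*. These rows were chosen after their values were seen.

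A few transcripts were close to undetected in 1 *gsp* library. Of 407 rows with 100 or more in 1 library and less in the other, 11 were under 10 in the other, 9 of them higher in the mutants. LOC797886 was 1086 in *gsp* mutants and 858 in *rhs* mutants, and at the floor of 1 in both siblings. LOC100535405 was 1138 and 3.9 in mutants and siblings of *gsp*, and 813 and 5.0 in those of *rhs*. LOC100332938 was 509 and 3.7 in *gsp* and at the floor in *rhs*. The first pair of rows was thus high in the mutants of both lines.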

How the data were processed

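Total RNA of pooled whole larvae was sequenced by the authors and aligned to danRer7 (submitters' processing notes). The authors deposited values per transcript, headed raw and floored at 1, that by their size and library sums were taken as estimated counts, although the study calls them RPKM. The normalized columns the authors deposited are log2 values and were not used, nor were their tables of log2 ratios and folds. Values of at least 100 in both *gsp* libraries were kept, and log2(mutant/sibling) was centred on its median. With 1 library per group no test, SE or p-value could be had. Intervals are exact Clopper-Pearson at 95% on rounded counts, cover counting error only and treat reads as independent molecules. The members, the 60 gene lists (2748 entries, 2623 found) and the naming rule were chosen with earlier results of these data known. The rule named the 15 highest and 15 lowest named transcripts, up to 5 per list, up to 10 per direction at 2-fold in *gsp* and within 0.32 of 0 (log2) in *rhs*, up to 10 opposite in *rhs*, rows at 500 in one *gsp* library and under 10 in the other, the grainyhead-like genes with *cdh1* and *myo5b*, and 3 on each side of each threshold. Other genes were named beyond this rule, among them *krt4*, *krt18*, *hspa5*, *fkbp14* and *crygm2d8*. RefSeq names (assembly GRCz12tu) came through Entrez identifiers, 22434 of 27423 of which matched. A search of promoters was planned and not run. Alternatives were other scalings (TMM by edgeR 4.0.16), minimum values, a pseudocount, 1 row per gene and other controls. Those chosen after seeing the data were the restriction to shared type labels and centring within 10 groups of gene length. The code was tested on simulated data. Python 3.11.15 and R 4.3.3 were used.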

Additional observations from a re-analysis of the deposited data

Results flagged for a closer look

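Each of the following transcripts was at least 1.5-fold higher in the mutants of one line and at least 1.5-fold lower in those of the other. A list was included where its medians had opposite signs and both were at least 0.2 in absolute value. Further lists had medians of opposite sign but did not meet that bound, such as collagen folding and ER chaperones (-0.40 in *gsp* and 0.07 in *rhs*). The difference was not tested for any of them, since each line had 1 mutant and 1 sibling library. In all, 35 transcripts met the description for transcripts. Differences are *gsp* log2 ratio minus *rhs* log2 ratio. Higher in *gsp* were the muscle genes *ampd1* (difference 1.87), *myhc4* (1.78), *myhz1.2* (1.59) and *myhz1.1* (1.56). The hormone gene *stc1l* (2.12), the transporter gene *mfsd4b* (1.95), the protocadherin *pcdh1a3* (1.85) and the transcription factor *sim1a* (1.31) were also on that side. The fast skeletal muscle list, with medians of 0.20 and -0.32, differed by 0.52.

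Lower in *gsp* were the cytochrome P450 genes *cyp2aa8* (difference -2.93), *cyp2aa9* (-2.35) and *cyp2aa4* (-1.59), and the oxidases *dao.1* (-2.15) and *dao.3* (-1.65). With them were *rgl3a* (-1.91), whose product acts on Ral GTPases, the retinol dehydrogenase *rdh1* (-1.71) and the chaperone *hsp47* (-1.59). The keratin list, with medians of -0.40 and 0.31, differed by -0.71.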

How the results depend on the processing

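At least 1.5-fold different were 1345 transcripts, 943 higher and 402 lower. Requiring 500 in both libraries gave 858 (604 and 254), the *rhs* sibling as control 3434 (2198 and 1236), both siblings as control 2172 (1518 and 654) and a 2-fold threshold 440 (358 and 82). The lower number was 661 without scaling and 668 with a minimum of 10. TMM scaling gave 1343, library totals 1364 and centring within gene length 1281. Of the 60 list medians, 34 were counted as moved with the *rhs* sibling as control and 21 with both siblings. Without scaling all 60 were, through a uniform shift of -0.11 in log2. With TMM scaling or centring within gene length all 60 were counted as the same. With the *rhs* sibling as control the log2 ratio changed sign for wu:fa92h10 (0.36), wu:fb11f10 (1.02), zgc:172260 (0.17), *hsp47* (0.94), *tmx3* (0.56), *rgl3a* (3.64), *pcdh1a3* (-0.12), *rdh1* (0.19), *impdh1a* (-0.75) and LOC100334082 (2.65), and with both siblings for *hsp47* (0.057) and *rgl3a* (1.33). The causes were not tested. No paired analysis was possible because each group had 1 library and the labels give no replicate numbers, and for the same reason no library could be left out. The promoter search was not run. Below 100 counts, where 12555 rows lay in both libraries, nothing was compared.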
